A study of Rattus norvegicus with 12 samples.

Results

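Levels of Arc, Nptx2 and Ptgs2 messenger RNA in the rat striatum were read from 12 Illumina arrays, each hybridised with 1 biotin-labelled sample. These 3 genes were taken by name as effector genes of neuronal activity, that is, genes whose transcription follows synaptic activity and whose products act outside the nucleus. Each was read by 1 probe, 3 of the 13375 probes in the table and 3 of its 9218 named genes. The 6 PD control samples came from rats with the parkinsonian disease model that had no chronic levodopa. The 6 LID samples came from rats with the same disease model that had become dyskinetic under chronic levodopa, given at 25 mg/kg as the methyl ester together with 6.25 mg/kg of benserazide, a peripheral decarboxylase inhibitor. RNA was extracted on day 8 post treatment. The sources used here do not give the lesion, strain, sex or age of the animals. No group received levodopa without dyskinesia, so drug and movement disorder cannot be told apart. The labels do not say that each sample was a separate animal, so the p-values reflect only the spread between samples, which may be technical.

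Arc encodes a cytoskeleton-associated protein whose mRNA is carried into dendrites of recently active neurons, where the protein promotes removal of AMPA-type glutamate receptors from synapses. Nptx2 encodes neuronal pentraxin 2, also called Narp, a secreted protein that gathers AMPA receptors at excitatory synapses. Ptgs2 encodes cyclooxygenase-2, which turns arachidonic acid into the precursor of the prostaglandins and is inducible in neurons as well as in inflammatory and vascular cells. The comparison addresses whether transcripts of these 3 proteins stand at other levels in the dyskinetic than in the untreated parkinsonian striatum.

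RefSeq promoter sequences (GRCr8) matched 2 of the 3 genes, Nptx2 and Ptgs2. They are shown because both transcripts were higher in LID. The 250 bases before each gene's start are printed 5′ to 3′ on the gene's strand, with motif matches in capitals. Nptx2 lies at chr12:15162046-15162295 (minus strand) and Ptgs2 at chr13:64713813-64714062 (plus strand).
Nptx2: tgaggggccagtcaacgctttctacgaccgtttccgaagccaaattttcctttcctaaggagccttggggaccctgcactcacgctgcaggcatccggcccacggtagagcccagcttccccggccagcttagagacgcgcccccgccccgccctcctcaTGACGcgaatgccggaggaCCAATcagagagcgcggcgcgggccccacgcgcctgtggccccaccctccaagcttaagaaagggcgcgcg
Ptgs2: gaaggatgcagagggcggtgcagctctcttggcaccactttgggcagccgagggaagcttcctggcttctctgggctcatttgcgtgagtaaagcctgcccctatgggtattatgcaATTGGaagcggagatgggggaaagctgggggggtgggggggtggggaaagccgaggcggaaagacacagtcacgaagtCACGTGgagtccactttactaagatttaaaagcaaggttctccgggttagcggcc

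The motifs, chosen after these sequences had been seen, were searched on both strands. They were the cyclic AMP response element TGACGTCA and its core TGACG (which the longer motif contains), the E-box CACGTG, the TATA box TATAAA, the CCAAT box, the AP-1 site TGANTCA and the CArG box of serum response factor. The Nptx2 window held TGACG at 90 to 86 bases and CCAAT at 71 to 67 bases before the start. The Ptgs2 window held CACGTG at 55 to 50 bases before the start, and CCAAT on the opposite strand at 133 to 129 bases. Among 33469 rat promoter windows of the same length, 18.2% held TGACG, 34.0% CCAAT and 5.59% CACGTG. The letters of the full cyclic AMP response element (1.59% of windows), TATAAA (12.9%), the AP-1 site (6.34%) and the CArG box (1.5%) were in neither window, and the Ptgs1 window, of the constitutive cyclooxygenase, held none of the 7. A match is a string of letters in this window, not a measured binding site. The Nptx2 window was 66.0% G or C and the Ptgs2 window 57.2%.

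Ptgs2 had the clearest separation of the 3 genes. Its deposited intensity ran from 477 to 690 in PD control (median 566) and from 770 to 1122 in LID (median 1028). All 6 LID arrays lay above all 6 PD control arrays, the lowest LID array being replicate 2 and the highest control array replicate 6. On the normalized log2 scale (normexp background correction with an offset of 50, then quantile normalization) the mean was 9.18 ± 0.21 in PD control and 9.95 ± 0.20 in LID (SD, n = 6 per group). The difference was 0.77 ± 0.11 (SE; 95% interval 0.54 to 1.00), a 1.71-fold higher level, with a limma adjusted p of 0.00063 over all probes. An exact two-sided permutation test over arrays gave p = 0.0022, the smallest that 6 against 6 arrays allow. The difference was 3.8 times the residual SD. In whole tissue, a change in the number of cells of a type and a change in RNA per cell cannot be told apart, here and for the other genes.

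Nptx2 was also higher in LID, with wider spread. Its intensity ran from 170 to 241 in PD control (median 200) and from 219 to 659 in LID (median 472). All LID arrays but replicate 2 lay above every control array, and LID replicate 2, at 219, lay within the control range. The log2 mean was 7.71 ± 0.17 in PD control and 8.71 ± 0.59 in LID (SD, n = 6 per group). The difference of 1.01 ± 0.22 (SE; 95% interval 0.53 to 1.48) is a 2.01-fold higher level (limma adjusted p = 0.0098; exact two-sided permutation p = 0.0065). The LID arrays were also more spread than the control arrays, with an SD 3.49 times as large, against ratios of 0.98 for Ptgs2 and 0.88 for Arc. LID replicates 1 and 2 (288 and 219) were low and replicates 3 to 6 high (439 to 659), with no LID array between 288 and 439.

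For Arc 5 of 6 LID arrays lay above the control mean, but the difference did not pass the threshold. Its intensity ran from 238 to 642 in PD control (median 282) and from 307 to 621 in LID (median 485). The control array at 642 was replicate 6, above every LID array, and the other 5 control arrays lay between 238 and 319. The log2 mean was 8.34 ± 0.51 in PD control and 8.85 ± 0.45 in LID (SD, n = 6 per group). The difference was 0.51 ± 0.24 (SE; 95% interval -0.0095 to 1.03), or 1.42-fold (limma adjusted p = 0.20; exact two-sided permutation p = 0.082). Arc ranked 261 of 13375 probes by absolute log2 difference, and its residual SD of 0.48 exceeded that of 98.7% of probes.

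The call of Arc turned on PD control replicate 6. In a fit that left this array out, the difference was 0.71 and passed (limma adjusted p = 0.027), while leaving out any other single array gave 0.42 to 0.62 and no call. In that array the score of the cortical excitatory markers was 1.46, second to 1.57 in PD control replicate 3 and against -0.55 to -0.05 in the other 4 control arrays (mean of markers standardised over the 12 arrays, 5 of 8 measured). Arc in PD control replicate 3 was 279, inside the range of the other controls. The endothelial score, from 3 of 6 markers, was also highest in replicate 6, at 1.36 against -1.09 to -0.15 in the rest of its group. In PD control 2 of these 3 markers, and 3 of the 5 cortical ones, had means under the lower quartile of all probes. Each score weighs such dim markers like bright ones. With the cortical and choroid plexus scores as covariates the difference of Arc was 0.56 (limma adjusted p = 0.14), and the part of endothelial cells in the Arc value was not tested.

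**Figure D1:**
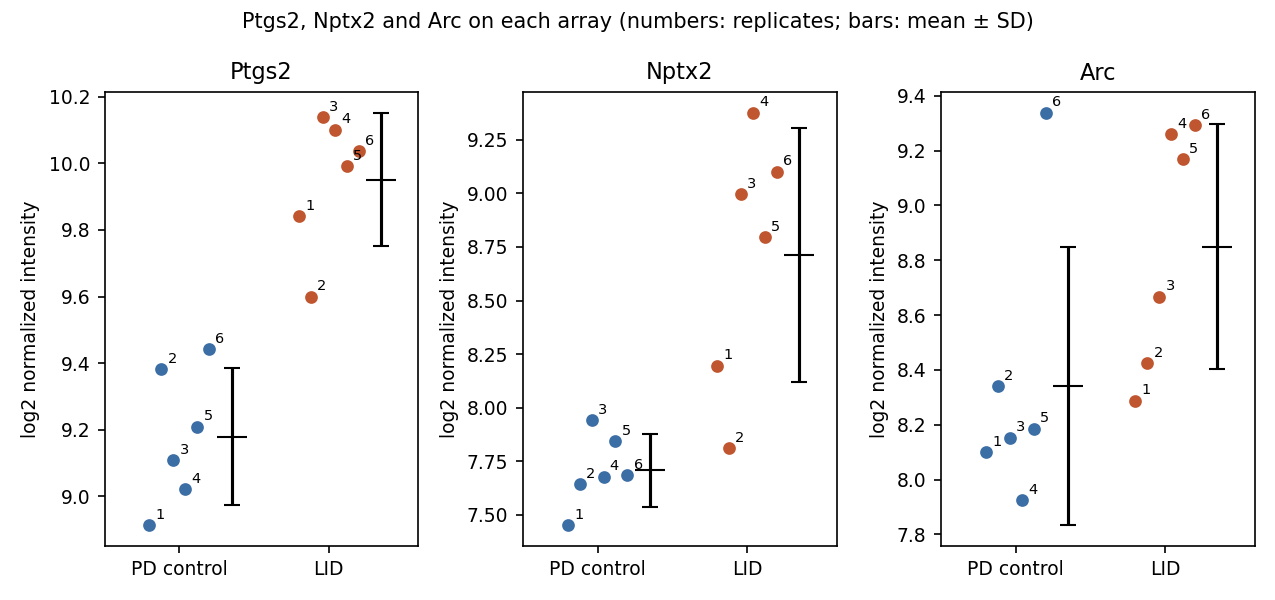
Log2 normalized intensity of Ptgs2, Nptx2 and Arc on each array, PD control in blue and LID in orange, with replicate numbers beside the points and the mean ± SD as black bars (n = 6 per group, a separate vertical scale per gene). The groups of Ptgs2 do not overlap, LID replicate 2 of Nptx2 lies among the controls, and PD control replicate 6 of Arc lies above all LID arrays.

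Of the 3 genes, 2 passed the limma threshold (adjusted p under 0.05), both higher in LID, where 6.47% of all probes were higher and 5.54% lower. Every LID array lay above every control array for 1 of the 3, Ptgs2, and for 3.34% of all probes. The sizes of the 3 changes were then set against each other within arrays, over 3 pairs. The log2 difference of Arc minus that of Nptx2 was -0.50 ± 0.26 (SE; 95% interval -1.08 to 0.082; exact permutation p = 0.065, adjusted over the pairs p = 0.19). Arc minus Ptgs2 was -0.26 ± 0.21 (95% interval -0.73 to 0.20; exact permutation p = 0.25, adjusted p = 0.26), and Nptx2 minus Ptgs2 was 0.23 ± 0.19 (95% interval -0.20 to 0.66; exact permutation p = 0.26, adjusted p = 0.26). No pair passed, so these arrays do not rank the 3 differences.

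LID replicates 1 and 2 had the lowest values of all 3 genes in their group: Arc deviated from its LID mean by -0.56 and -0.43 log2 units there, Nptx2 by -0.52 and -0.90, and Ptgs2 by -0.11 and -0.35. LID replicate 4 had the highest Nptx2 and LID replicate 6 the highest Arc. The 3 pairs of genes correlated at r = 0.83 (Arc and Nptx2), 0.64 (Arc and Ptgs2) and 0.94 (Nptx2 and Ptgs2) over the 6 LID arrays, with Spearman's rho of 0.83, 0.54 and 0.83.

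Over the 6 PD control arrays the pattern was less uniform. The correlation was 0.77 for Arc and Ptgs2 (rho 0.94), 0.24 for Nptx2 and Ptgs2 (rho 0.31) and -0.03 for Arc and Nptx2 (rho 0.20). PD control replicate 6 was the highest control array for Arc and Ptgs2, while its Nptx2 value, 200, was at the control median. After subtraction of the group means, the 12 arrays gave 0.71 for Arc and Ptgs2, 0.68 for Nptx2 and Ptgs2 and 0.52 for Arc and Nptx2. Without the 2 arrays farthest from the median of the gene named first, these were 0.63, 0.44 and 0.71. The points share arrays and normalization, and these correlations are descriptions of these arrays.

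**Figure D2:**
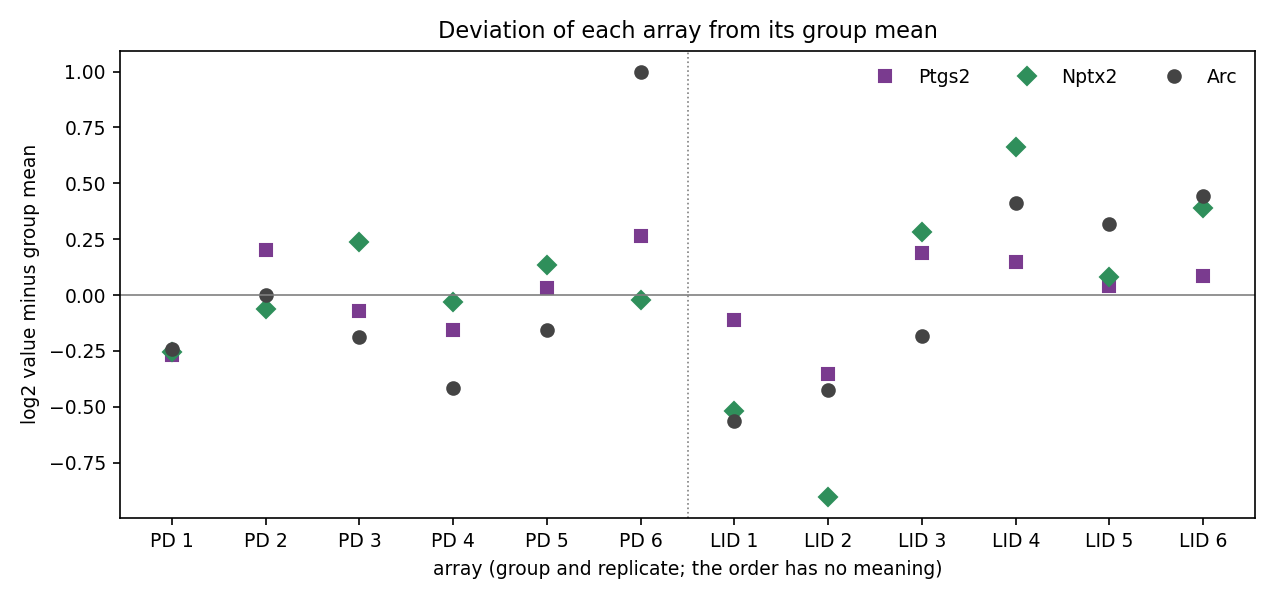
Log2 value of each gene minus the mean of its group, on each of the 12 arrays (the order of arrays has no meaning). All 3 genes lie under their group mean on LID replicates 1 and 2, and Arc stands 1.00 above its group mean on PD control replicate 6 while Nptx2 lies at -0.02.

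The genes most like each of the 3 across the 12 arrays differed from gene to gene. For Nptx2 the highest correlations among 9217 other named genes were those of Mmp9, a matrix metalloproteinase (r = 0.98), Cdyl2 (0.97), Mchr1, a receptor of melanin-concentrating hormone (0.97), Cx3cl1, the chemokine fractalkine (0.97), and Egfl7 (0.97). All 5 were themselves called higher in LID. For Ptgs2 they were Tpbg (0.98), the tetraspanin gene Tspan5 (0.96), Chpf, an enzyme of chondroitin synthesis (0.96), Ppp1r1a, an inhibitor of protein phosphatase 1 (0.96), and Stim2, a calcium sensor of the endoplasmic reticulum (0.96), again all called higher. For Arc they were Tmem204 (0.94), Srp54a (0.90), Ier5 (0.88), the transcription factor gene Egr2 (0.87) and Zfp574 (0.87), none of which was called. A correlation above 0.9 was reached by 65 genes for Nptx2, 88 for Ptgs2 and 2 for Arc. These values include the difference between groups, which called genes share. After subtraction of the group means the counts were 15, 1 and 1.

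With group means subtracted, which leaves only the variation inside groups, Mmp9 (0.95), Extl1 (0.94), Cx3cl1 (0.94), Cdyl2 (0.94) and Exosc7 (0.93) were nearest to Nptx2. Tpbg stayed among the nearest to Ptgs2 (0.89), after Myo1a (0.91) and Lxn (0.89) and before Fmnl1 (0.88) and Rpp38 (0.87). For Arc they were Tmem204 (0.94), Fam222a (0.90), Rcan2, a regulator of calcineurin (0.88), Spetex2h (0.88) and Uxs1 (0.87). Without PD control replicate 6 the values of Tmem204, Fam222a, Spetex2h and Uxs1 were 0.87, 0.85, 0.79 and 0.71. Without LID replicate 2 the value of Cdyl2 with Nptx2 was 0.87 and that of Mmp9 0.99. In the same fit the value of Fmnl1 with Ptgs2 was 0.80.

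Each list of related genes is read against all 9218 named genes, of which 7.46% were called higher and 6.03% lower. Of the genes of prostaglandin and related lipid pathways (among them Alox5, Alox12, Alox15 and Faah), 22 of 35 listed beside Ptgs2 were measured. Of these, 1 rose, none fell and 21 missed the threshold, with a median log2 difference of -0.014 against -0.0013 over all named genes. Ptger3, Alox15, Slco2a1, Tbxa2r, Pla2g4b, Alox12, Tbxas1 and Ptgr1 were dim, so changes in them would be understated. Their PD control means were 5.85 to 6.18 log2, under the lower quartile of all probes (6.22). The gene that rose was Ptgfrn (0.53 ± 0.09, limma adjusted p = 0.0034), which encodes a membrane protein named for inhibiting prostaglandin F2α binding to its receptor, and is no enzyme of the pathway. Pla2g4a, the cytosolic phospholipase A2 that releases arachidonic acid, had a PD control mean of 6.47 log2 and differed by -0.05 ± 0.06. Hpgd, which inactivates prostaglandins, differed by 0.08 ± 0.17. Ptgs1, Ptges, Ptges3 and Ptger4, on the list of genes to be named, had no named probe here.

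Of the genes of pentraxins, AMPA receptors and their auxiliary proteins, 23 of 30 listed beside Nptx2 were measured: 1 rose, 2 fell and 20 missed the threshold (median log2 difference -0.022), a share of calls near that of all named genes (7.46% higher, 6.03% lower). Dlg1, the scaffold SAP97 that binds the GluA1 subunit, rose by 0.47 ± 0.08 (limma adjusted p = 0.0019). Gria2, the AMPA receptor subunit GluA2, fell by 0.24 (SE 0.06, limma adjusted p = 0.016), and Cacng3, an auxiliary subunit of AMPA receptors, fell by 0.33 (SE 0.10, limma adjusted p = 0.046). The fall of Cacng3 was called in 2 of the 12 fits without 1 array, where it ranged from -0.41 to -0.28. Nptxr, the pentraxin receptor that assembles with Nptx2, differed by -0.30 ± 0.18 and did not pass (limma adjusted p = 0.34). Its highest value was in PD control replicate 3 (7.85, the others of its group 6.50 to 7.22), and without that array the difference was -0.13. Dlg4, the scaffold PSD-95, differed by 0.10 ± 0.06. Nptx1 and Gria1 had no named probe.

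**Figure D3:**
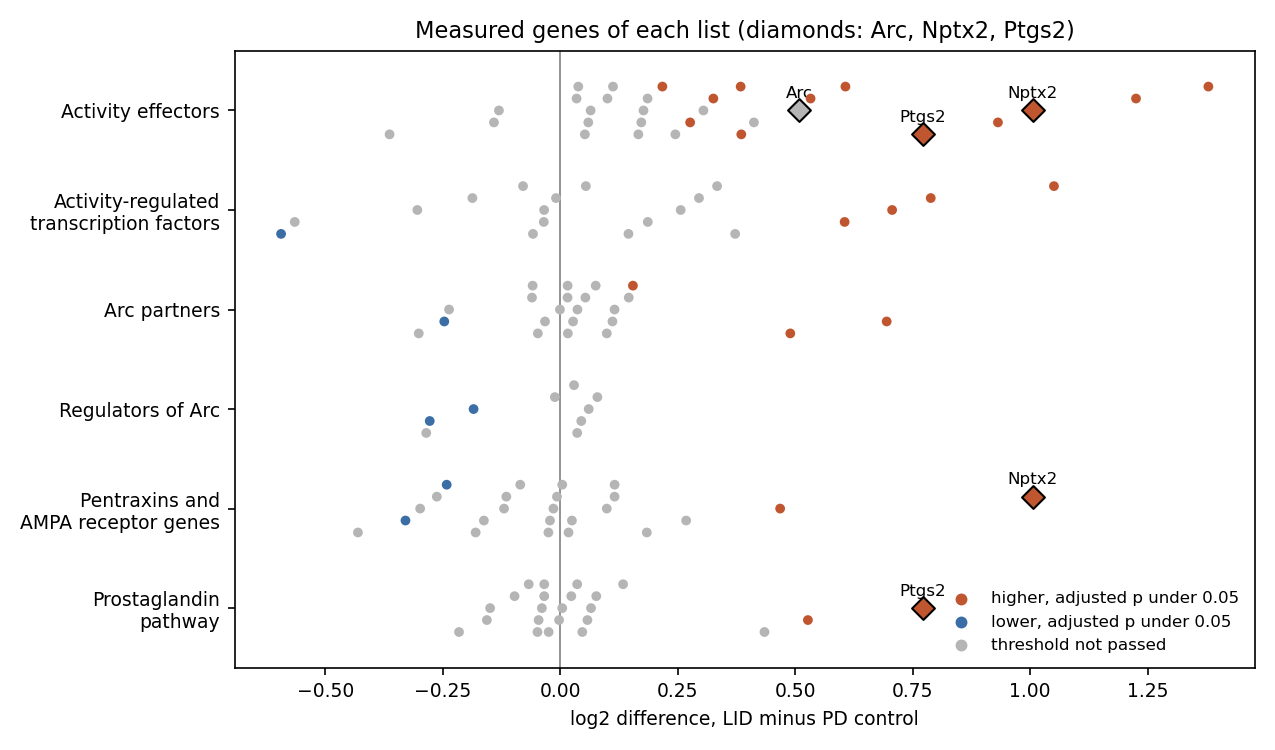
Log2 difference, LID minus PD control, of each measured gene in 6 lists (rows; vertical offsets within a row only separate points), coloured by the limma call. Ptgs2 and Nptx2 (diamonds) have the largest difference of their own pathway's list, at 0.77 and 1.01, and among the effectors Inhba and Scg2 lie beyond both.

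Proteins that bind Arc or act with it in endocytosis were measured through 22 of 28 listed genes, of which 3 rose, 1 fell and 18 missed the threshold (median 0.022; all named genes 7.46% higher and 6.03% lower). Ap2b1 (0.69 ± 0.11, limma adjusted p = 0.0017) and Ap2a2 (0.49 ± 0.10, limma adjusted p = 0.0055) rose. Both encode subunits of the clathrin adaptor AP-2, whose 3 other measured subunit genes did not pass, at 0.15 ± 0.07 (Ap2a1), 0.03 ± 0.06 (Ap2s1) and 0.02 ± 0.08 (Ap2m1). Ube3a, a ubiquitin ligase gene, rose by 0.15 ± 0.04 from a dim signal (limma adjusted p = 0.016). With an offset of 1 in place of 50 the rise of Ube3a was 0.52 (limma adjusted p = 0.0062), and without PD control replicates 1, 3 and 6 together it was 0.12 and no longer a call (limma adjusted p = 0.13). Sh3gl3, an endophilin gene, fell by 0.25 (SE 0.07, limma adjusted p = 0.041). The fall of Sh3gl3 was called in 4 of the 12 fits without 1 array.

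Regulators of Arc transcription and translation were less well covered, with 9 of 19 listed genes measured. None rose, 2 fell and 7 missed the threshold (median 0.029), where 7.46% of all named genes were higher and 6.03% lower. Rps6ka5, a kinase gene also called MSK1, fell by 0.28 (SE 0.08, limma adjusted p = 0.037), and Map2k2, the kinase MEK2, fell by 0.18 (SE 0.05, limma adjusted p = 0.039). These falls were called in 5 and 2 of the 12 fits without 1 array, and without PD control replicates 1, 3 and 6 together Rps6ka5 was at -0.43 (limma adjusted p = 0.0053). Srf, which encodes serum response factor, differed by -0.01 ± 0.07, with a sign that turned in 5 of those 12 fits. Creb1, the factor of the cyclic AMP response element, was dim (PD control mean 6.06 log2) and differed by 0.08 ± 0.05. Mef2c had no named probe.

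Among activity effectors, 27 others were measured, of which 10 rose, none fell and 17 missed the threshold (median 0.19, range -0.36 to 1.38), where 7.46% of all named genes were higher. The mean score of these effectors and of the activity-regulated factors was higher in LID by 0.63. Scores of other lists differed between groups by amounts of like size, at -0.80 (mural and meningeal), 0.69 (endothelial), 0.64 (projection neurons) and -0.58 (cortical), against 0.10 (choroid plexus and ependymal) and 0.0022 (microglial). Inhba, a subunit of the activins (1.38 ± 0.17), and the secretory granule genes Scg2 (1.23 ± 0.14) and Vgf (0.93 ± 0.14) showed no overlap between groups. They were named for their large differences. Sik1 was also separated, and most of the other effectors overlapped. Every LID array lay above every control array for 3.34% of all probes. The lowest LID array was replicate 2 for Inhba (7.73), Scg2 (9.83) and Vgf (7.77), as for Ptgs2 and Nptx2. Bdnf, the neurotrophin gene, had a PD control mean of 6.59 log2 and differed by -0.13 ± 0.20 (limma adjusted p = 0.75). Homer1 had no named probe.

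Activity-regulated transcription factors were represented by 20 measured genes, of which 4 rose, 1 fell and 15 missed the threshold (median 0.10; all named genes 7.46% higher and 6.03% lower). Klf10 (1.05 ± 0.14), Crem (0.79 ± 0.09), Nr4a3 (0.71 ± 0.21) and Nfil3 (0.61 ± 0.12) rose, and Nr4a3 was called in 4 of the 12 fits without 1 array. The single fall was that of the clock gene Per1 (-0.59 ± 0.10, limma adjusted p = 0.0032), named after its value was seen. Fos (0.30 ± 0.20) and Egr1 (0.37 ± 0.20) shared with Arc a PD control replicate 6 above every LID array, at 8.30 against a highest LID value of 7.88 for Fos and 11.36 against 11.12 for Egr1. Without that array both passed, at 0.48 (limma adjusted p = 0.028) and 0.56 (limma adjusted p = 0.016). Npas4 was dim and differed by -0.06 ± 0.07. The mean score of the other effectors and factors correlated inside groups at r = 0.91 with Arc, 0.64 with Ptgs2 and 0.51 with Nptx2 (12 arrays, group means subtracted). On the same arrays the choroid plexus and ependymal score correlated at -0.54 with Arc, -0.56 with Ptgs2 and -0.71 with Nptx2. The mural and meningeal score (2 measured markers) correlated at -0.60 with Nptx2, and the endothelial score (3 measured markers) at 0.71 with Arc. PD control replicate 6 was the highest control array for Arc, the endothelial score (1.36) and the score of effectors and factors (0.51). The correlations of 0.91 and 0.71 were not recomputed without it. The highest choroid plexus and ependymal scores of the LID group were those of replicates 1 and 2 (0.96 and 0.67), the arrays with the lowest Nptx2. With the choroid plexus and cortical scores as covariates the difference of Nptx2 was 0.97, and the part of mural, meningeal and endothelial cells in the values was not tested. These lists were chosen with earlier results of the data known, and the scores share arrays with the genes.

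Striatal identity was checked on 8 of 9 markers of projection neurons, of which 7 in PD control and 8 in LID had a mean above the upper quartile of all probes (8.75 log2). Tac1 (1.25 ± 0.17) and Drd1 (0.57 ± 0.11) were higher in LID and the other 6 did not pass. Of all named genes, 7.46% were called higher and 6.03% lower. Without PD control replicates 1, 3 and 6 together Drd1 was at 0.37 and not called (limma adjusted p = 0.051). Summed intensity of this list was 37485 to 56699 in PD control, lowest in replicates 1, 3 and 6, and 44802 to 56812 in LID. Cortical markers, summed over 5, were 318 to 1036 in PD control and 302 to 583 in LID, choroid plexus and ependymal markers 270 to 22632 and 580 to 15848 (5 of 6 measured), endothelial markers 830 to 1111 and 929 to 1212, and mural and meningeal markers 241 to 375 and 217 to 310 (2 of 6). Microglial markers summed to 1958 to 2662 and 1707 to 2192 (5 of 6), with Aif1 lower in LID (-0.41 ± 0.08) and the other 4 not past the threshold. Several markers were dim, with a PD control mean under the lower quartile of all probes (6.22 log2). They were 3 of 5 cortical, 3 of 5 choroid plexus and ependymal, 2 of 3 endothelial and 1 of 5 microglial markers.

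PD control replicates 1, 3 and 6 had the lowest projection neuron scores of their group (-1.28, -1.15 and -1.04). Their cortical scores were -0.05, 1.57 and 1.46, and their choroid plexus and ependymal scores 1.53, -0.80 and -0.78. Without these 3 arrays the difference was 0.75 for Ptgs2 (limma adjusted p = 0.0058), 0.99 for Nptx2 (0.064, no longer a call) and 0.70 for Arc (0.088). With the cortical and choroid plexus scores as covariates it was 0.77, 0.97 and 0.56, with limma adjusted p of 0.0007, 0.0034 and 0.14. All 3 differences stayed positive in both fits, and that of Arc was larger than with all arrays and no covariate. Several markers in these scores were dim, and the part of tissue composition in the differences was not tested.

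**Figure D4:**
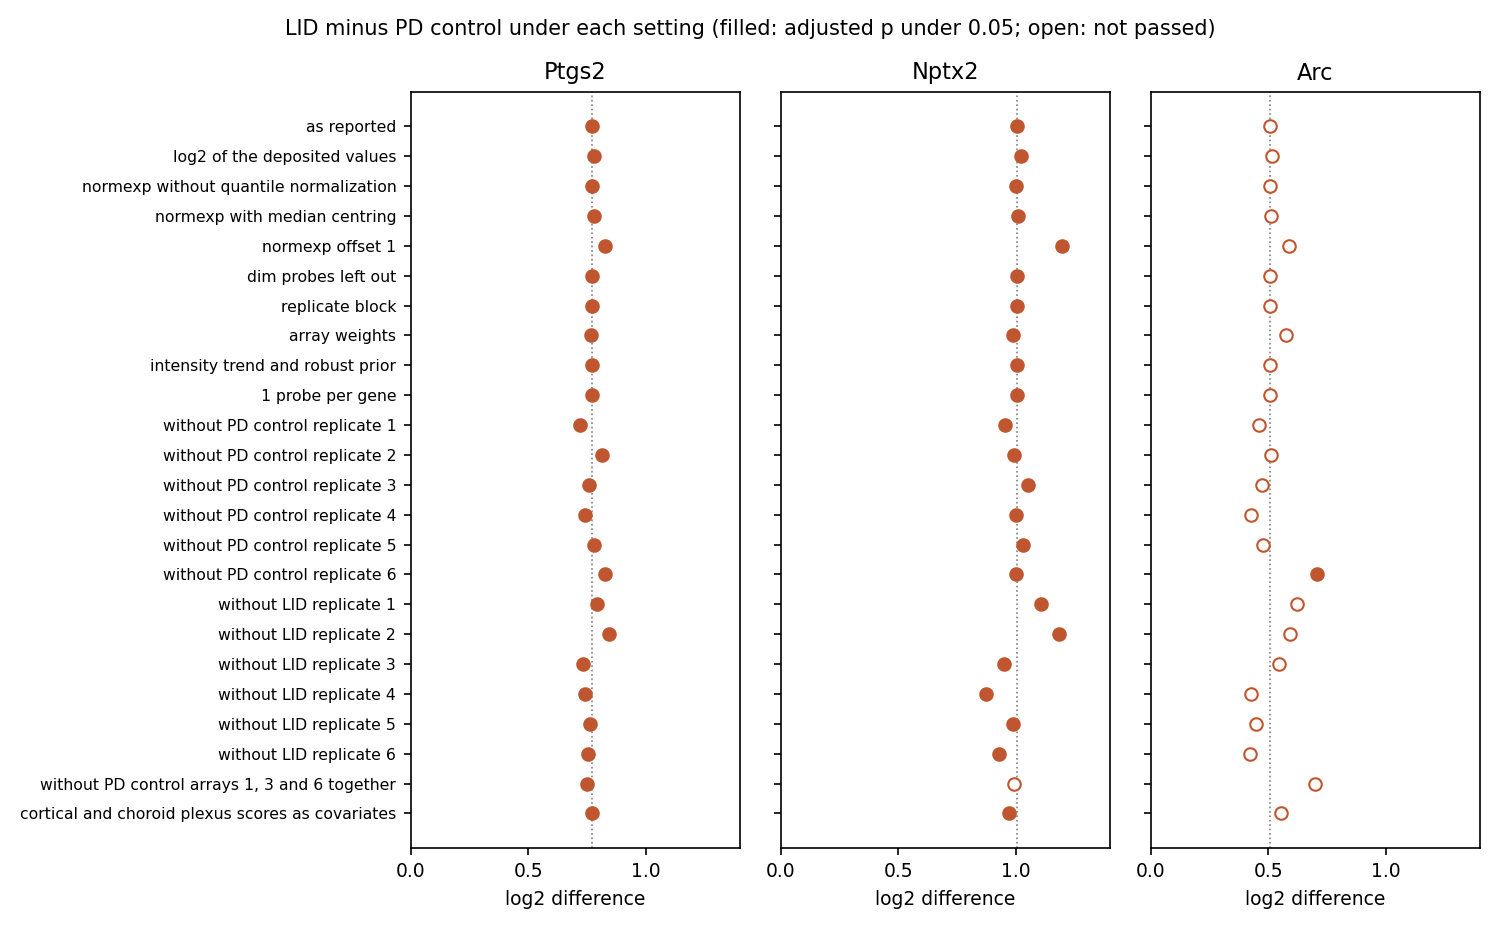
Log2 difference of Ptgs2, Nptx2 and Arc under each setting except the exact permutation test. Points are filled where the limma adjusted p was under 0.05, and a dotted line marks the reported value. All points lie to the right of 0, Ptgs2 between 0.72 and 0.84 throughout, and the only filled point of Arc is the fit without PD control replicate 6.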

How the data were processed

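Total RNA of 12 striatal samples was biotin-labelled and hybridised to 1-colour Illumina arrays, per the labels. The table deposited by the authors holds linear intensities (36.5 to 22793) that had already been made comparable, with an upper quartile of 425.7 on each array. The sources used here name no software, background correction or filter on dim probes, and detection p-values were not used. The number of arrays limits the precision.

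From these intensities, normexp (offset 50), quantile normalization and log2 were applied with limma 3.58.1 in R 4.3.3, so folds of dim genes are understated. Every probe was fitted (lmFit, eBayes, group as the only term, two-sided, Benjamini-Hochberg over 13375 probes, threshold 0.05). The fit was tested on values simulated on the normalized log2 scale, so background correction and normalization were not part of that test. Genes were named from the platform annotation, and a gene with several probes by its brightest.

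The 3 genes, all lists and all settings were chosen with earlier results of these data known. Named were the 3 genes, 20 fixed genes (9 had no named probe), up to 4 called members per pathway list and 2 per marker list with the largest change, and the 5 nearest genes by correlation. Alternatives were other normalizations, an offset of 1, a filter on dim probes, 1 probe per gene, array weights and an intensity trend with a robust prior. Others were marker scores as covariates, the replicate number given here as a block, arrays left out, and the exact permutation test with its p unadjusted. No pair of arrays held identical values (lowest correlation of log2 values 0.979).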

Additional observations from a re-analysis of the deposited data

Results flagged for a closer look

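On PD control replicate 6 the value of Arc was 9.34 log2, far above the other 5 control arrays (7.93 to 8.34): the gap took up 0.71 of the group's range. Klf10 was set apart on the same array, at 7.53 against 6.59 to 6.93 in the other controls (0.65 of the range). Of 66 combinations of a named gene and a group, these 2 passed Dixon's 95% critical value, and chance passes about 1 in 20.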

How the results depend on the processing

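Ptgs2 kept its call under all 12 other settings and in all 12 fits without 1 array (0.72 to 0.84). Among those settings was the exact permutation test, read by its unadjusted p (0.0022 for Ptgs2). Nptx2 kept its call in the 12 fits without 1 array (0.87 to 1.19) and lost it only without PD control replicates 1, 3 and 6 together (0.99, limma adjusted p = 0.064), a fit with 3 arrays fewer. Arc ranged from 0.42 to 0.71 in the fits without 1 array and passed only without PD control replicate 6. In those fits the differences between the changes ranged from -0.59 to -0.29 (Arc minus Nptx2), -0.34 to -0.12 (Arc minus Ptgs2) and 0.13 to 0.34 (Nptx2 minus Ptgs2). Without the 3 control arrays together, 524 probes were called higher, against 865 with all arrays. Uncalled genes near 0 changed sign. Without the 3 arrays Bdnf was at 0.18, Hpgd at -0.073 and Npas4 at 0.016, and with the marker scores as covariates they were at 0.12, -0.091 and 0.0053. Without 1 array Hpgd ranged from -0.033 to 0.16 and Srf from -0.054 to 0.020. Calls of other named genes were lost 43 times without 1 array and 11 times otherwise, mostly those of Map2k2, Cacng3, Nr4a3, Sh3gl3 and Rps6ka5, and the cause was not tested.

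The labels number the arrays consecutively, PD control before LID, so label order and group cannot be told apart. No label number is shared between the groups, and the replicate numbers used here count from 1 within each group. Samples given the same number here deviated together at correlations of -0.29 to 0.48. The labels do not pair samples, and a block on these numbers pairs them only by their place in the label order. With the replicate number as a block, Arc was at 0.51 (limma adjusted p = 0.11), Nptx2 at 1.01 (0.012) and Ptgs2 at 0.77 (0.0065), and 740 probes were called higher and 592 lower. Intensities near the floor understate changes, and 1 probe per gene leaves no check between probes.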
